A study of Mus musculus with 12 samples.

Results

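The replication-dependent histone genes of the mouse were followed in marrow RNA. They were taken as every row of the 2 tables whose symbol begins with Hist1h, Hist2h, Hist3h or Hist4h. Of 24533 gene rows in each table, 69 carried such a symbol, and 59 of them had a mean above 0 in both tables. The samples were 12 libraries from C57BL/6 marrow, 3 in each of 4 groups: LSK cells labelled U2af1KO, LSK cells labelled WT, lineage-negative (LinNeg) cells labelled U2af1KO and LinNeg cells labelled WT. LSK cells, a fraction defined by Sca-1 and c-Kit on lineage-negative cells, include the blood stem cells, and LinNeg cells are marrow from which cells carrying mature lineage markers have been removed. U2af1 encodes the smaller U2AF protein, which helps the splicing machinery find the end of an intron. The labels give no ages, no allele, no driver and no agent for the knockout, and the LSK samples carry the term BMT, which is not spelled out. Nothing in them ties the 3 libraries of a group to different mice, and the p-values therefore cover only library-to-library spread, which could be technical. Fold changes are the authors' own, of the KO label over the WT label, from DESeq2 run by the authors on each population separately. A gene was called when its adjusted p in the authors' deposited table was under 0.05.

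Replication-dependent histone genes supply the core histones H2A, H2B, H3 and H4 and the linker histones H1 that package newly made DNA. The core histones form the particle around which DNA is wound, and H1 binds where DNA enters and leaves it. The genes are short, mostly without introns, lie in clusters and are transcribed chiefly in S phase. Their mRNAs end in a conserved stem-loop that is bound by SLBP, instead of a poly(A) tail, and are degraded when replication stops. The libraries here were made from total RNA after removal of ribosomal RNA, a procedure that does not require a poly(A) tail.

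The histone stem-loop after the stop codon was common to most members. It is shown 5′ to 3′, as annotated in the mouse build mm10 and with the stem-loop in capitals, for members described below and for each H4 form found.
Hist1h1c: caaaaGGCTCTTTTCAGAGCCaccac
Hist1h2bb: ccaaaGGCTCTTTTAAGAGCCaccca
Hist3h2a: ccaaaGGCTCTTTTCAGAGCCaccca
Hist3h2ba: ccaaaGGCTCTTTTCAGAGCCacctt
Hist1h4d: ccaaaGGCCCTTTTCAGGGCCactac
Hist1h4b: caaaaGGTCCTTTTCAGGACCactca
Hist2h4: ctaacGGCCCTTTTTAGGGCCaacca
Among the 50 members with at least 30 annotated bases after the stop codon, 44 held a match, which began 21 to 58 bases after the stop. The form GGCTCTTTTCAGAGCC was present in 3 H1, 10 H2A, 8 H2B and 5 H3 genes. H4 genes had stems of their own, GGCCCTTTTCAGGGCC in 7, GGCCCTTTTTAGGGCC in 2 and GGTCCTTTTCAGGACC in 2. The 6 with no match were Hist1h1a, Hist1h2bc, Hist1h3g, Hist1h4a, Hist2h2be and Hist2h3b. A match needed a fixed pattern of letters with every stem base paired, so other forms would be missed. The annotation ends 37 bases after the stop in Hist2h3b and 48 in Hist1h1a, and a stem-loop there could lie past that end.

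Promoters of the members differed by histone type. The 4 shown run from 250 bases before to 50 bases after the RefSeq start, and come from RefSeq in build GRCm38.p6, all on the plus strand: Hist3h2a and Hist3h2ba because they are the coding genes with the largest called rises, Hist1h2bb because it was called in opposite directions in the 2 populations, and Hist1h4d because it had the highest level per coding length. They lie at chr11:58954435-58954734 (Hist3h2a), chr11:58948661-58948960 (Hist3h2ba), chr13:23746484-23746783 (Hist1h2bb) and chr13:23581318-23581617 (Hist1h4d). Capitals mark matches, on either strand, to CCAAT (the core bound by NF-Y), TATAAA (found near many starts), ATTTGCAT (the octamer bound by POU factors) and GGTCCG (part of the H4 promoter element).
Hist3h2a: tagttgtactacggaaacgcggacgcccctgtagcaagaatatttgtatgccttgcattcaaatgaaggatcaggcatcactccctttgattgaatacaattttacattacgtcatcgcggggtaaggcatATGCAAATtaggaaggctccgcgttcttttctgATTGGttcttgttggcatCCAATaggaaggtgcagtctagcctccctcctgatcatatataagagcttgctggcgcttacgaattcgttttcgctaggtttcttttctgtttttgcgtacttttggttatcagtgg
Hist3h2ba: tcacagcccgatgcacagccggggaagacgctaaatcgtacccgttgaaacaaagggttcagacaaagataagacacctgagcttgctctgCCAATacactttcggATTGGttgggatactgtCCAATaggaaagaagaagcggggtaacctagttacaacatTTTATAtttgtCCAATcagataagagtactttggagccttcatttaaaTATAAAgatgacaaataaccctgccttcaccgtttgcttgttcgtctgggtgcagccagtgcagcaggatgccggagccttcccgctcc
Hist1h2bb: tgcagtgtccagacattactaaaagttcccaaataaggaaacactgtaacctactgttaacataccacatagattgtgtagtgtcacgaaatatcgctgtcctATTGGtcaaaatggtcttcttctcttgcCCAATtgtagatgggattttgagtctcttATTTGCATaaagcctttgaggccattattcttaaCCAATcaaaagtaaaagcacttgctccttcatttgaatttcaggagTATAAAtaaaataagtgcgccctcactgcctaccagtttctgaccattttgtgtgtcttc
Hist1h4d: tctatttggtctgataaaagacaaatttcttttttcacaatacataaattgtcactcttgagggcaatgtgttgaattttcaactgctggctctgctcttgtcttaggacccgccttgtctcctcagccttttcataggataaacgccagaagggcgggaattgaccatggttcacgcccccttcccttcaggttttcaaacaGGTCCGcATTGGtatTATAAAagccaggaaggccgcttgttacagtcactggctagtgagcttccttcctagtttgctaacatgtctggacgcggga
RefSeq promoters were found for 61 of the 69 symbols. CCAAT was present in 52 of the 61 (85.2%), against 37.9% of 27025 promoters of the same length. It occurred in all 49 promoters of H1, H2A, H2B and H3 genes and in 3 of 12 H4 promoters. GGTCCG occurred in 11 of 12 H4 promoters, against 8.4% of all promoters. The octamer was found in 7 of 17 H2A and 6 of 16 H2B promoters, against 1.8% of all, and TATAAA in 35 of 61 members, against 14.2% of all. Matches of different motifs overlapped in 1 of the 61. Promoters of adjacent H2A and H2B genes transcribed away from each other can cover the same bases. Those of Hist1h2ae and Hist1h2bg do, so the same match was counted for both genes, and the counts are not of separate stretches. A match describes letters only.

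The genes lay on 4 chromosomes of mm10 (GENCODE M21). The Hist1 genes occupied chromosome 13 in a distal block of 18 rows from 21715763 to 21837530, a middle block of 5 rows from 22035164 to 22043676 and a main block of 29 rows from 23531050 to 23764406. A pair of testis genes lay at 23933773 to 23934851, and the row Hist1h2al, annotated as a processed pseudogene, stood outside at 51202727 to 51203065. The Hist2 cluster held 10 rows on chromosome 3 (96219865 to 96270132), the Hist3 cluster 3 rows on chromosome 11 (58948920 to 58956830), and Hist4h4 lay alone on chromosome 6 (136801553 to 136804415).

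Many members are copies of each other. All 13 H4 genes with these symbols encode the same protein. H3.1 came from 4 genes (Hist1h3a, Hist1h3g, Hist1h3h and Hist1h3i) and H3.2 from 8, the commonest H2A from 9 and the commonest H2B from 6, while each of the 6 H1 genes encodes a protein of its own. Of the 9 symbols listed at 0 in both tables, Hist1h2ap, Hist1h2bq, Hist1h2br, Hist1h4m, Hist2h2aa1, Hist2h2aa2, Hist2h3c1 and Hist2h3c2 each have another gene with 100% identity over the coding sequence. The ninth was the testis gene Hist1h2aa, in which 97.7% of 50-base windows are unique, and a further row, Hist1h2ao, was at 0 in the authors' deposited table for LSK and at 0.13 in that for LinNeg. Hist2h3c1 was at 0 although 65.2% of its windows over the whole transcript are unique. Of the 59 members measured in both, 35 had at least 50% of their 50-base windows unique among annotated transcripts. Reads of the other members can be divided between copies or left out by the counting, so single values of near-identical genes are uncertain. A total of 25 of the 69 rows share bases with another annotated gene, 7 of them on the same strand. The counting is not stated to use strand, so reads of such overlapping genes cannot be told apart.

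The members were abundant. Their median mean stood at percentile 92.9 of the genes tested in LSK and at percentile 95.4 in LinNeg, and together they made up 1.09% and 1.61% of the summed gene means in the same order. Per kilobase of coding sequence, Hist1h4d had the highest level in the authors' deposited tables, 58843 normalized counts in LSK and 80169 in LinNeg. The lowest levels were those of the testis genes Hist1h2ba, with means of 9.85 normalized counts in LSK and 6.10 in LinNeg in the authors' deposited tables, and Hist1h1t, with means of 9.29 and 77.9. Both are known as testis genes, and the symbol rule includes them. Values per library were not analysed here, and depth is unknown. Means under each label, given below as normalized counts, were therefore derived from the mean and fold change in the authors' deposited tables and carry no SD of their own, and their error is that of the fold change.

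Some measures of the whole libraries moved with the label. U2af1 was higher in the libraries labelled KO, with a log2 fold change of 0.61 ± 0.06 (SE) in LSK (adjusted p = 1.72e-25) and of 0.65 ± 0.20 in LinNeg (adjusted p = 0.00293) in the authors' deposited tables, so KO is used below as a label of libraries. Genes that mark the sex of the cells moved with the label as well, Xist in both populations and Ddx3y in LSK, and the labels give no sex. Xist, the RNA that silences an X chromosome in female cells, had 62360 normalized counts under KO and 347 under WT in LSK (7.49 ± 0.94, adjusted p = 1e-14), and 41468 under KO and 40.0 under WT in LinNeg (10.02 ± 1.81, adjusted p = 2.73e-07), per the authors' deposited tables. Ddx3y, a gene of the Y chromosome, had 4.99 under KO and 2949 under WT in LSK (-9.21 ± 0.38, adjusted p = 1.38e-127), and 1255 under KO and 2165 under WT in LinNeg (-0.79 ± 1.64, adjusted p = 0.739). Of 9 erythroid markers tested, 9 were called higher in LSK (median log2 fold change 2.85, derived sum 94256 under KO and 14744 under WT) and 8 in LinNeg (median 2.58, 75919 under KO and 16569 under WT). Of the 12 such markers listed, the globin Hbb-bs was listed at 0 in both tables, and Hba-a1 was at 0.16 in LSK and 0 in LinNeg. Ahsp had no value in either population. Of 12 monocyte, neutrophil and dendritic markers, 6 were called higher and 3 lower in LSK (median 0.27, derived sum 176617 under KO and 78063 under WT), and 12 were called lower in LinNeg (median -5.80, 4697 under KO and 151093 under WT). Of 10 stem cell markers, 9 were called lower in LSK (median -2.29, 28603 under KO and 100020 under WT), and 2 were called higher and 4 lower in LinNeg (median 0.50, 7258 under KO and 10320 under WT). No myeloid or stem cell marker was at 0. Mature lineage markers had 1 called higher and 1 lower in each population, of 10 tested in LSK (derived sum 1225 under KO and 1583 under WT) and of 8 in LinNeg (3406 under KO and 4781 under WT). The part of these shifts in the histone values was not tested, and in bulk RNA fewer cells of a type and less RNA per cell cannot be told apart.

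In LSK cells nearly the whole set of histone genes was higher in the libraries labelled KO. Of 59 members, 56 were called higher and 1 lower, against 32.4% of all 16482 genes tested called higher, 29.2% called lower and 61.6% called in either direction. The median log2 fold change of the members was 0.53, beside 0.04 for all genes. All 14 H2A genes, 10 H3 genes and 12 H4 genes tested were called higher, with 15 of 17 H2B genes and 5 of 6 H1 genes. The genes not called were the weakly expressed testis genes Hist1h1t and Hist1h2ba. Hist2h2be was called lower, with a log2 fold change of -0.31 ± 0.12 (SE) and adjusted p = 0.0129 in the authors' deposited table, and it was the one member whose derived mean was lower under KO (397) than under WT (493).

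In LinNeg cells histone genes were called in both directions. Values lay below 0 for 39 of 59 members, and for 7461 of all 17108 genes tested. There, 6 of 59 members were called higher and 14 lower, or 20 in all, against 22.1%, 19.3% and 41.4% of all 17108 genes tested. The share called as deposited was thus below the background in that table. The median log2 fold change of the members was -0.17, while the median of all genes was 0.16. When fold changes were recentred on that median gene, 3 members were called higher, all of them Hist3 rows, and 25 lower. The lower calls then comprised 2 H1, 7 H2A, 6 H2B, 4 H3 and 6 H4 genes. The share of all genes called on recentring is not given here, so these recentred counts have no background beside them. As deposited, called lower were 2 of 6 H1, 4 of 14 H2A, 4 of 17 H2B, 2 of 10 H3 and 2 of 12 H4 genes. Called higher were 1 H1, 1 H2A, 2 H2B, 1 H3 and 1 H4 gene. Among members with a mean of at least 500, the standard error had a median of 0.06 in LSK and 0.21 in LinNeg, and the smallest called log2 fold change was 0.19 in size in LSK and 0.45 in LinNeg. The LSK median of 0.53 lies close to that LinNeg size.

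**Figure D1:**
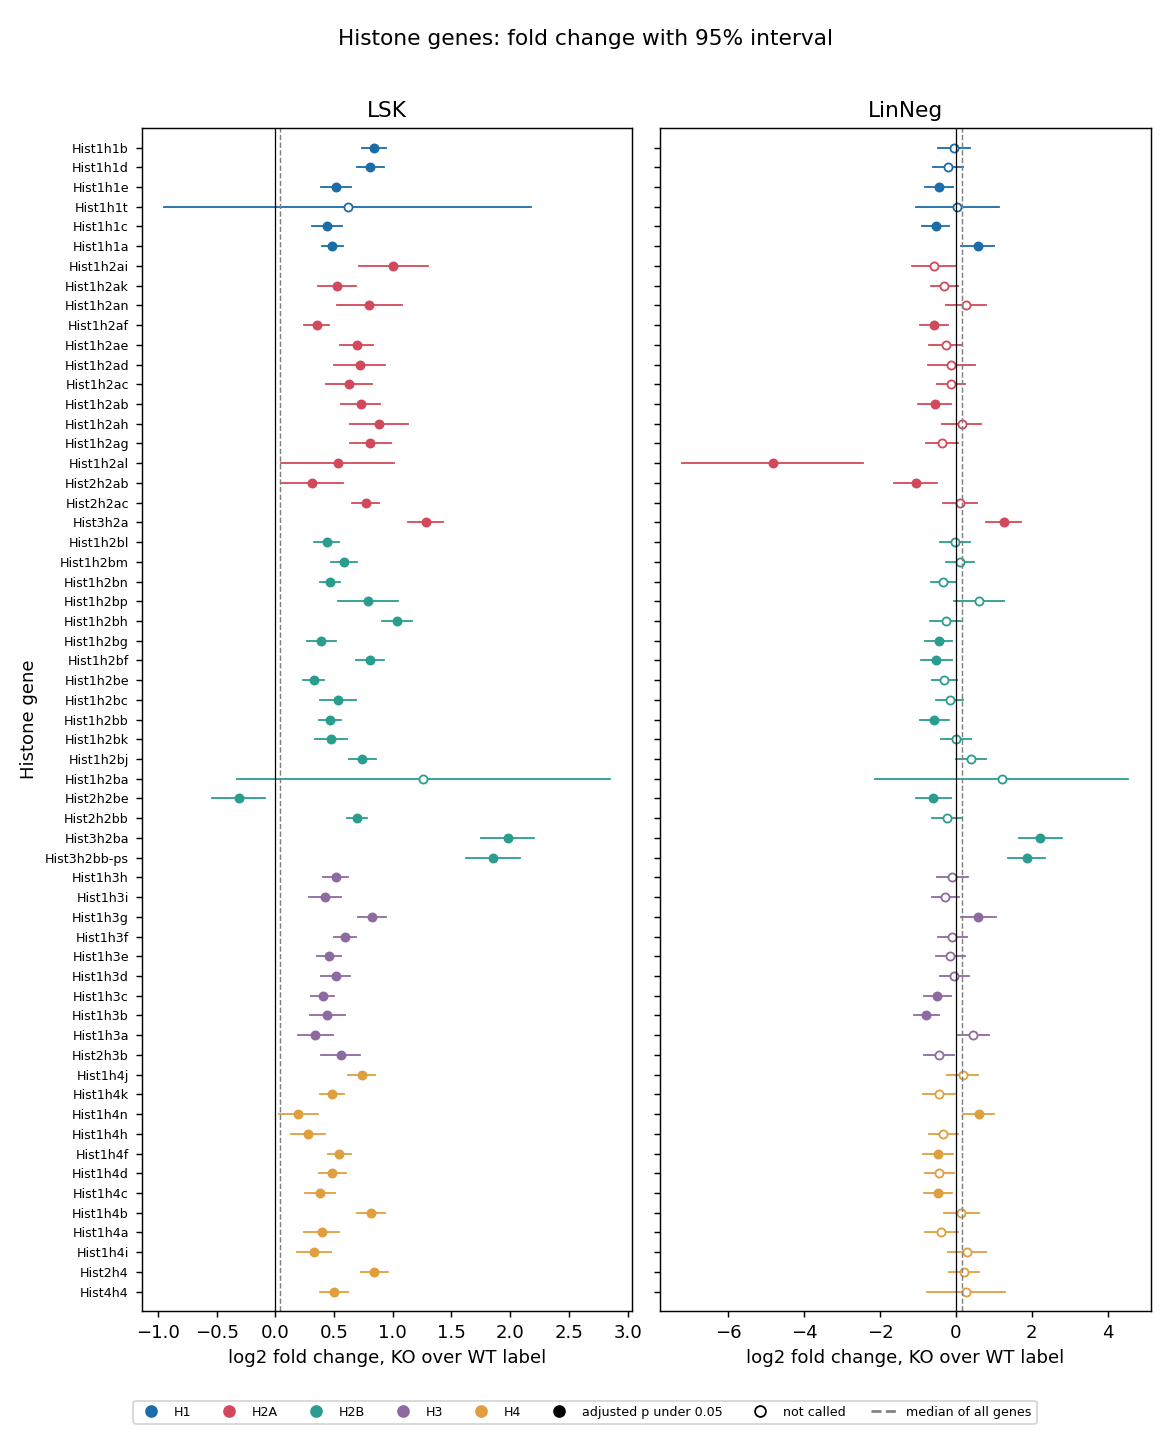
Log2 fold change, KO over WT label, of each of the 59 histone genes with a mean above 0 in LSK (left) and LinNeg (right), coloured by histone type. Points are the authors' values, lines their 95% intervals, filled points are called, and the dashed line is the median of all genes. In LSK 58 points lie right of 0, and in LinNeg 20 do, with the 3 Hist3 genes farthest right among those called.

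Among linker histone genes, all 5 somatic subtypes were called higher in LSK, from 0.44 ± 0.07 (SE) for Hist1h1c (adjusted p = 9.81e-11) to 0.84 ± 0.05 for Hist1h1b (adjusted p = 4.41e-61) in the authors' deposited table. Hist1h1c had 25209 normalized counts under KO and 18604 under WT in LSK, Hist1h1e had 20453 under KO and 14304 under WT, and Hist1h1d had 18928 under KO and 10801 under WT. In LinNeg the subtypes split. Hist1h1c had 26292 under KO and 37946 under WT there (-0.53 ± 0.18, adjusted p = 0.0102), and Hist1h1e had 25284 under KO and 34633 under WT (-0.45 ± 0.19, adjusted p = 0.0411), so both were called lower, per the authors' deposited table. Hist1h1d, at 23454 under KO and 27032 under WT, was not called (-0.20 ± 0.20, adjusted p = 0.437). Hist1h1a, which encodes H1.1, was the linker gene called higher, with 27254 under KO and 18344 under WT (0.57 ± 0.22, adjusted p = 0.0292). Recentring on the median gene left Hist1h1a at 0.42 with adjusted p = 0.128.

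H2A genes had the highest median log2 fold change of the 5 types in LSK, 0.72. Hist1h2ak, the H2A gene of highest mean, had 14181 normalized counts under KO and 9865 under WT in LSK (0.52 ± 0.08 SE, adjusted p = 8.85e-10, as given by the authors' deposited table). In LinNeg it had 11919 under KO and 14692 under WT and was not called (-0.30 ± 0.19, adjusted p = 0.194), although recentring gave -0.46 with adjusted p = 0.0369. Hist1h2af and Hist1h2ab were called in opposite directions in the 2 populations. Hist1h2af had 6741 under KO and 5277 under WT in LSK (0.35 ± 0.05, adjusted p = 1.88e-10), and 5660 under KO and 8455 under WT in LinNeg (-0.58 ± 0.18, adjusted p = 0.00559), per the authors' deposited tables. Hist1h2ab had 5224 under KO and 3158 under WT in LSK (0.73 ± 0.08, adjusted p = 1.79e-17), and 6135 under KO and 9068 under WT in LinNeg (-0.56 ± 0.22, adjusted p = 0.025). Hist2h2ac, of the Hist2 cluster, was called in LSK alone. It had 7201 under KO and 4224 under WT there (0.77 ± 0.06, adjusted p = 1.36e-39), and 8142 under KO and 7558 under WT in LinNeg (0.11 ± 0.22, adjusted p = 0.739).

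Among H2B genes, the 2 of highest mean were called higher in LSK and were not called in LinNeg as deposited. Hist2h2bb had 17205 normalized counts under KO and 10630 under WT in LSK (0.69 ± 0.04 SE, adjusted p = 2.04e-54 in the authors' deposited table), and 18481 under KO and 21798 under WT in LinNeg (-0.24 ± 0.20, adjusted p = 0.351). Hist1h2bn had 12149 under KO and 8782 under WT in LSK (0.47 ± 0.04, adjusted p = 8.65e-26), with no call in LinNeg (13503 under KO and 17047 under WT, -0.34 ± 0.17, adjusted p = 0.0991). On recentring Hist1h2bn was called lower in LinNeg (-0.49, adjusted p = 0.0111). Hist1h2bb, Hist1h2bf and Hist1h2bg were called higher in LSK and lower in LinNeg. Hist1h2bb had 10242 under KO and 7403 under WT in LSK (0.47 ± 0.05, adjusted p = 2.69e-21), and 11616 under KO and 17206 under WT in LinNeg (-0.57 ± 0.20, adjusted p = 0.0121), per the authors' deposited tables. Hist1h2bf had 4690 under KO and 2682 under WT in LSK (0.81 ± 0.06, adjusted p = 4.61e-40), and 3997 under KO and 5719 under WT in LinNeg (-0.52 ± 0.21, adjusted p = 0.0375). Hist1h2bg had 7540 under KO and 5743 under WT in LSK (0.39 ± 0.06, adjusted p = 2.74e-09), and 7192 under KO and 9861 under WT in LinNeg (-0.46 ± 0.19, adjusted p = 0.0356).

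H3 genes encode H3.1 or the nearly identical H3.2. In LSK the median log2 fold change was 0.49 for the 6 measured H3.2 genes and 0.47 for the 4 H3.1 genes. In LinNeg all 6 H3.2 genes had values below 0 (median -0.30, derived sum 56101 under KO and 67942 under WT), and the H3.1 genes had a median of 0.18 (31889 under KO and 29572 under WT). This contrast was not tested. The LinNeg fall with the smallest adjusted p of the set was that of Hist1h3b, an H3.2 gene, with 2690 under KO and 4610 under WT (-0.78 ± 0.17 SE, adjusted p = 3.88e-05, per the authors' deposited table). In LSK Hist1h3b had 5150 under KO and 3792 under WT (0.44 ± 0.08, adjusted p = 2.77e-08). Hist1h3c, also H3.2, had 17453 under KO and 13206 under WT in LSK (0.40 ± 0.05, adjusted p = 4.03e-14), and 14210 under KO and 19958 under WT in LinNeg (-0.49 ± 0.18, adjusted p = 0.0196). Both were thus called in opposite directions, whereas Hist1h3g, an H3.1 gene, was called higher in both populations. It had 5584 under KO and 3154 under WT in LSK (0.82 ± 0.06, adjusted p = 1.38e-39), and 6706 under KO and 4440 under WT in LinNeg (0.59 ± 0.23, adjusted p = 0.026; 0.44 with adjusted p = 0.113 on recentring). The most abundant H3 gene, Hist1h3e, had 25260 under KO and 18416 under WT in LSK (0.46 ± 0.05, adjusted p = 7.57e-17), and 18472 under KO and 20517 under WT in LinNeg (-0.15 ± 0.19, adjusted p = 0.569). Hist1h3f resembled it, with 12244 under KO and 8117 under WT in LSK (0.59 ± 0.05, adjusted p = 6.06e-35), and 11703 under KO and 12515 under WT in LinNeg (-0.10 ± 0.20, adjusted p = 0.731).

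H4 genes all encode the same protein. The summed level of the 12 measured genes was 116599 normalized counts under KO and 82698 under WT in LSK, and 129160 under KO and 147453 under WT in LinNeg. Hist1h4d, whose promoter is shown above, had 21219 under KO and 15145 under WT in LSK (0.49 ± 0.06 SE, adjusted p = 1.24e-16, a value of the authors' deposited table). In LinNeg it had 21000 under KO and 28545 under WT and missed the threshold (-0.44 ± 0.19, adjusted p = 0.0547). Hist1h4f and Hist1h4c were called lower in LinNeg and higher in LSK. Hist1h4f had 13561 under KO and 9299 under WT in LSK (0.54 ± 0.05, adjusted p = 7.81e-27), and 13768 under KO and 19108 under WT in LinNeg (-0.47 ± 0.20, adjusted p = 0.04). Hist1h4c had 8361 under KO and 6426 under WT in LSK (0.38 ± 0.07, adjusted p = 2.07e-08), and 9806 under KO and 13600 under WT in LinNeg (-0.47 ± 0.19, adjusted p = 0.0295), per the authors' deposited tables. Hist1h4k and Hist1h4h were called higher in LSK and were not called in LinNeg as deposited. Hist1h4k had 13830 under KO and 9910 under WT in LSK (0.48 ± 0.05, adjusted p = 3.09e-20), and 13818 under KO and 18818 under WT in LinNeg (-0.45 ± 0.22, adjusted p = 0.0848). Hist1h4h had 12974 under KO and 10695 under WT in LSK (0.28 ± 0.07, adjusted p = 2.39e-04), and 13047 under KO and 16454 under WT in LinNeg (-0.33 ± 0.19, adjusted p = 0.159). Recentred on the median gene, 6 H4 genes in place of 2 were called lower in LinNeg, among them Hist1h4d (-0.60, adjusted p = 0.00684), Hist1h4k (-0.60, adjusted p = 0.0153) and Hist1h4h (-0.49, adjusted p = 0.0296). That recentred count has no share of all genes beside it.

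Hist1h4n was the H4 gene called higher in both populations. It had 7810 normalized counts under KO and 6828 under WT in LSK, the smallest called rise of the set (0.19 ± 0.08 SE, adjusted p = 0.0363), and 9836 under KO and 6503 under WT in LinNeg (0.60 ± 0.21, adjusted p = 0.0119), per the authors' deposited tables. Recentred, its call was lost in both (adjusted p = 0.109 in LSK and 0.0734 in LinNeg). It shares its coding sequence with Hist1h4m, which was listed at 0, and 14.4% of its windows are unique.

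**Figure D2:**
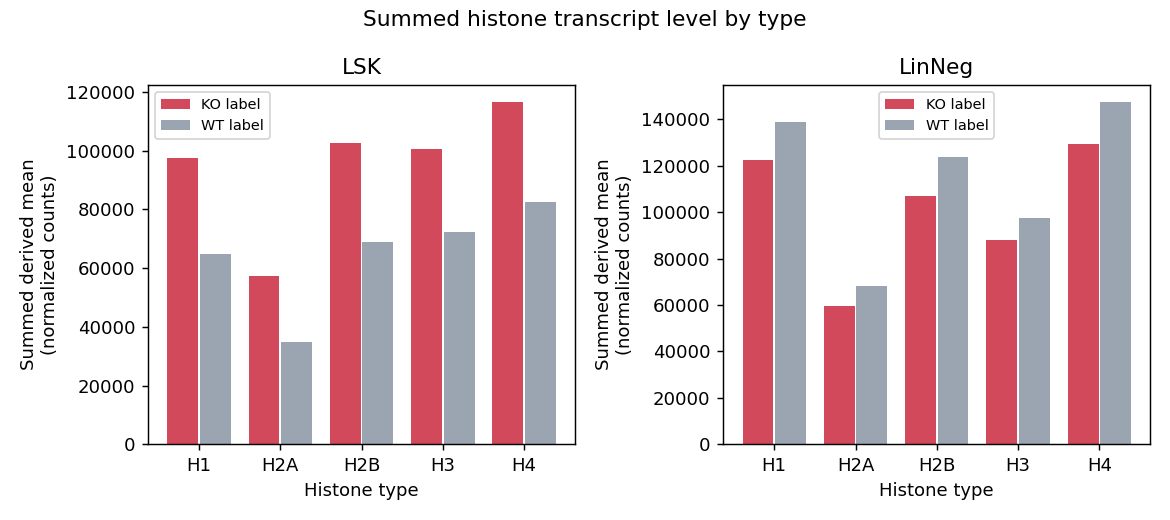
Summed derived mean, in normalized counts, of the members of each histone type under the KO and WT labels, in LSK (left) and LinNeg (right). The tables were normalized separately, so bars are comparable within a panel, and no error is drawn because no value per library was used. The KO bar is taller for all 5 types in LSK and shorter for all 5 in LinNeg.

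The summed level depends less than single genes on how counted reads were divided between copies. Reads that were not counted at all would be missing from it. Both genes of the identical pairs Hist2h2aa1 and Hist2h2aa2, Hist2h3c1 and Hist2h3c2, and Hist1h2bq and Hist1h2br were listed at 0. Over the 59 members the summed level was 474688 normalized counts under KO and 323609 under WT in LSK, a ratio of 1.47. In LinNeg it was 506007 under KO and 575790 under WT, a ratio of 0.879. As a share of all gene counts this was 1.26% under KO and 0.905% under WT in LSK, and 1.555% under KO and 1.664% under WT in LinNeg. By type, the LSK ratios were 1.51 for H1, 1.64 for H2A, 1.49 for H2B, 1.39 for H3 and 1.41 for H4. In LinNeg they lay between 0.866 for H2B and 0.902 for H3. For H2A in LinNeg the log2 ratio was -0.20 with the row Hist1h2al and -0.10 without it. Recentred on the median gene, the LinNeg log2 ratios of the types lay between -0.36 for H2B and -0.30 for H3. These sums carry no test.

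The direct test of the difference, the LSK fold change minus the LinNeg fold change, called 41 of 59 members, all of them with the higher value in LSK. In the other direction 0 were called, and 0 had an unadjusted p under 0.05. Among all 15735 genes with both tests, 31.9% were called different and 17.4% were called higher in LSK. The median difference was 0.70 log2 units for the members and -0.0008 for all genes. Only the LSK samples carry the term BMT, and the sex marker Ddx3y was called in LSK alone. Cell population, that term and sex therefore cannot be told apart in these differences. There were 38 members above 0 in LSK and below 0 in LinNeg, and 13 of them were called in both with those opposite directions (22 on recentring). A further 6 were called higher in both populations (Hist1h1a, Hist1h3g, Hist1h4n and the 3 Hist3 rows), and Hist2h2be was called lower in both. The shares of all genes with such paired signs or calls were not counted. These numbers therefore have no background and are not read as particular to the histones. By type, the difference was called for 4 of 6 H1, 12 of 14 H2A, 8 of 17 H2B, 8 of 10 H3 and 9 of 12 H4 genes.

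The 5 members with the largest called differences were Hist1h2al (5.36 ± 1.24 SE, adjusted p = 1.17e-04), Hist1h2ai (1.59 ± 0.33, adjusted p = 1.49e-05), Hist2h2ab (1.37 ± 0.31, adjusted p = 9.74e-05), Hist1h2bf (1.32 ± 0.22, adjusted p = 3.14e-08) and Hist1h2bh (1.31 ± 0.22, adjusted p = 6.53e-08). These adjusted p-values come from a two-sided normal test on the 2 authors' fold changes with Benjamini-Hochberg adjustment over all 15735 genes. Hist1h2al had 123 normalized counts under KO and 85.1 under WT in LSK (0.53 ± 0.24, adjusted p = 0.049), and 175 under KO and 4985 under WT in LinNeg (-4.83 ± 1.22, adjusted p = 3.3e-04), per the authors' deposited tables. The LSK call of Hist1h2al was lost with no filter on low means (adjusted p = 0.0541) and on recentring (adjusted p = 0.072). Its LinNeg standard error was the widest of the members with a mean of at least 500. Hist2h2ab had 476 under KO and 384 under WT in LSK (0.31 ± 0.13, adjusted p = 0.0364), and 350 under KO and 732 under WT in LinNeg (-1.06 ± 0.28, adjusted p = 7.64e-04), and its LSK call was lost on recentring (adjusted p = 0.0745). Hist1h2ai and Hist1h2bh had log2 fold changes of 1.01 ± 0.15 and 1.04 ± 0.06 in LSK, and were not called in LinNeg, at -0.58 ± 0.30 (adjusted p = 0.1) and -0.27 ± 0.21 (adjusted p = 0.321), per the authors' deposited tables. Hist1h2ai was called lower in LinNeg on recentring (-0.74, adjusted p = 0.0315).

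**Figure D3:**
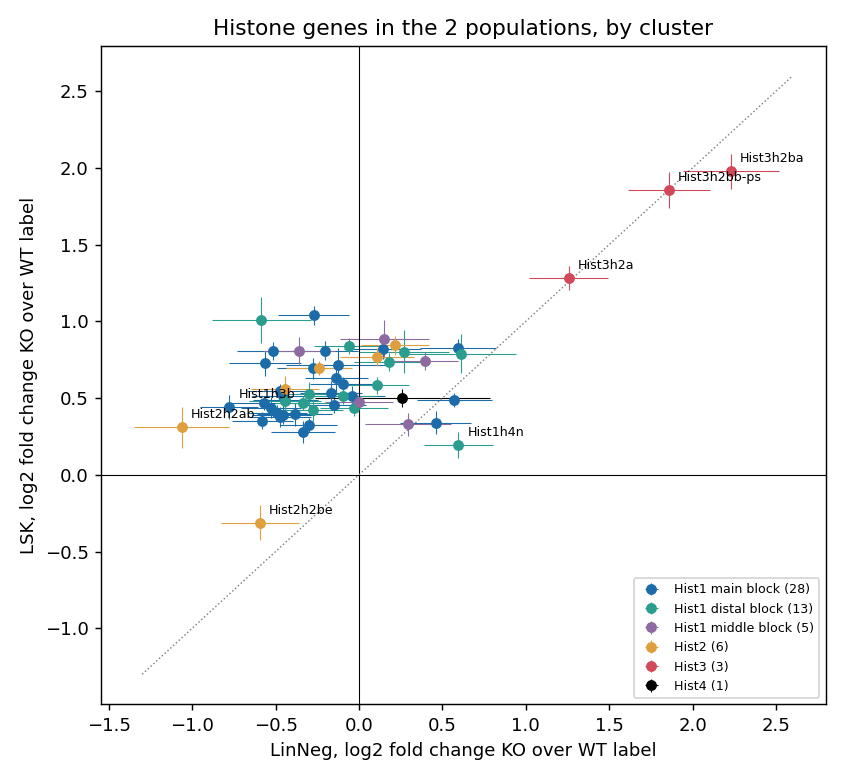
Log2 fold change, KO over WT label, in LSK (vertical) against LinNeg (horizontal) for the 56 members with both means at 100 or higher, apart from Hist1h2al, coloured by cluster. Bars are 1 standard error and the dotted line marks equal values. The 3 Hist3 genes lie at the upper right, with Hist3h2ba (1.98 in LSK and 2.23 in LinNeg) below the line and the other two close to it, most other members lie above it, and Hist2h2be is the one point below 0 on the vertical axis.

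In the Hist3 cluster all 3 rows were called higher in both populations. Hist3h2a, an H2A gene, had 10633 normalized counts under KO and 4375 under WT in LSK (1.28 ± 0.08 SE, adjusted p = 5.78e-61, per the authors' deposited table), and 12254 under KO and 5129 under WT in LinNeg (1.26 ± 0.23, adjusted p = 6.98e-07). Hist3h2ba, an H2B gene, had 895 under KO and 227 under WT in LSK (1.98 ± 0.11, adjusted p = 8.25e-65), and 1950 under KO and 416 under WT in LinNeg (2.23 ± 0.29, adjusted p = 1.66e-13). The row Hist3h2bb-ps, annotated as a processed pseudogene of the H2B type, had 1092 under KO and 302 under WT in LSK (1.86 ± 0.12, adjusted p = 6.8e-56), and 2111 under KO and 582 under WT in LinNeg (1.86 ± 0.25, adjusted p = 6.04e-13). The derived sum of the cluster was 2.57 times as high under KO as under WT in LSK and 2.66 times in LinNeg. Of the differences between the populations 0 of 3 were called by the normal test, and 0 had an unadjusted p under 0.05. The difference for Hist3h2a was 0.02 (95% interval -0.46 to 0.51, adjusted p = 0.958), that for Hist3h2ba was -0.25 (-0.86 to 0.36, adjusted p = 0.591) and that for Hist3h2bb-ps was -0.0050 (-0.54 to 0.53, adjusted p = 0.993). The median difference of all members, 0.70, lies outside these intervals, which do include smaller differences. Small or negative differences without a call were not particular to Hist3. They included Hist1h1a (-0.08 ± 0.23 SE), Hist1h3a (-0.12 ± 0.23), Hist1h4i (0.04 ± 0.27) and Hist1h4n (-0.40 ± 0.22).

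The Hist3 rows are less repetitive than many members, with 98.0%, 77.9% and 70.0% of their 50-base windows unique in the order above. Hist3h2a shares bases on the same strand with Trim17, whose mean was 0.89 normalized counts in LSK and 4.83 in LinNeg in the authors' deposited tables. Other genes beside the cluster, chosen after their values were seen, did not share a direction in LinNeg. Btnl10 had log2 fold changes of 3.23 in LSK and 2.54 in LinNeg, Rnf187 had 0.61 and 0.79, and Trim11 had 0.45 and -0.65, per the authors' deposited tables.

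Across the Hist1 cluster all 13 measured rows of the distal block, all 5 of the middle block and 28 of 29 in the main block were called higher in LSK, with median log2 fold changes of 0.52, 0.74 and 0.52. In LinNeg the main block had 2 called higher and 11 called lower of 29 (median -0.30). The distal block had 1 higher and 0 lower of 13 in DESeq2, run by the authors (median -0.06), with 3 lower at an unadjusted p under 0.05. The middle block had 0 called of 5 (median 0.15), with 1 at an unadjusted p under 0.05. On recentring these counts moved to 0 higher and 15 lower in the main block, 0 higher and 5 lower in the distal block (Hist1h2ai, Hist1h2ak, Hist1h2bn, Hist1h3i and Hist1h4k), and 1 lower in the middle block (Hist1h2ag, -0.51, adjusted p = 0.0438), whose median member, Hist1h2ah, stood at -0.0052. The share of all genes called on recentring is not given here, so the recentred counts have no background. Whether the blocks differ was not tested. Derived sums for the main block were 299993 under KO and 210464 under WT in LSK, and 313953 under KO and 378155 under WT in LinNeg.

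**Figure D4:**
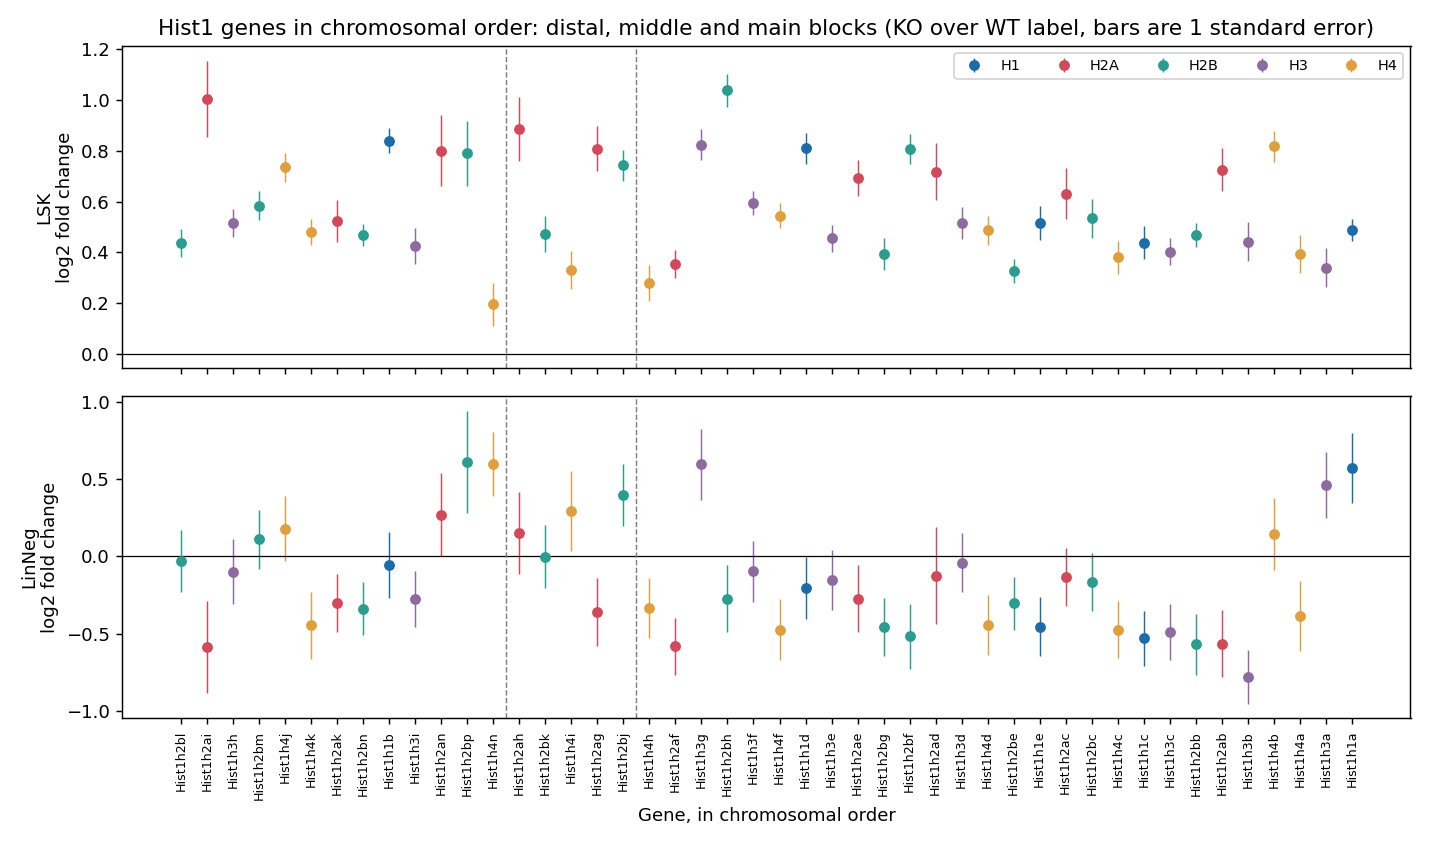
Log2 fold change, KO over WT label, of the Hist1 genes with both means at 100 or higher, in chromosomal order and coloured by histone type, in LSK (top) and LinNeg (bottom). Bars are 1 standard error and dashed lines separate the distal, middle and main blocks. Every LSK point lies above 0, and most main-block points in LinNeg lie below it.

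Adjacent protein-coding H2A and H2B genes that are transcribed away from each other were compared within the clusters. The pseudogene row Hist3h2bb-ps was left out of this pairing. In the 9 such pairs with start sites 175 to 301 bases apart, both partners had the same sign in 8 pairs in LSK and 6 in LinNeg. In LSK 58 of 59 members lay above 0, so a shared sign there carries little information. Genes that are not partners were not compared in this way, so these pairs have no background. The size of the difference between partners had a median of 0.10 log2 units in LSK and 0.34 in LinNeg. The widest gap in LSK was between Hist2h2ac (0.77) and Hist2h2be (-0.31), a difference of 1.08 ± 0.13 (SE, taking the partners as independent). In LinNeg it was between Hist1h2ag (-0.36) and Hist1h2bj (0.40), a difference of -0.76 ± 0.29 between 2 genes neither of which was called.

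Hist2 genes followed the main pattern apart from Hist2h2be. In LSK 5 of 6 were called higher, with a derived sum of 36807 under KO and 22512 under WT. In LinNeg 2 of 6 were called lower, Hist2h2ab and Hist2h2be, with a sum of 41793 under KO and 44706 under WT. With Hist2h3b, 3 were called lower on recentring, a count with no share of all genes beside it. Hist2h2be had 408 under KO and 616 under WT in LinNeg (-0.59 ± 0.23 SE, adjusted p = 0.0298 in the authors' deposited table). All of its 50-base windows were unique (100%). Hist4h4 had 4147 under KO and 2931 under WT in LSK (0.50 ± 0.06, adjusted p = 2.14e-15) and 6768 under KO and 5655 under WT in LinNeg (0.26 ± 0.52, adjusted p = 0.73).

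Genes that act with the replication-dependent histones did not all share the difference between the populations. S-phase genes were called higher in 24 of 30 and lower in 2 in LSK (median 0.49), and higher in 21 and lower in 1 of 30 in LinNeg (median 0.57). Of all genes tested, 32.4% were called higher and 29.2% lower in LSK, and 22.1% and 19.3% in LinNeg. The difference was called for 3 of 30 S-phase genes, against 31.9% of all genes. These were Cdc45 (0.66, higher in LSK) and Mcm5 and Tyms (-0.49 and -0.51). Ccne1, the cyclin E gene, had log2 fold changes of 2.55 ± 0.13 (SE) in LSK and 2.41 ± 0.24 in LinNeg, and Rrm2, a subunit of ribonucleotide reductase, had 1.51 ± 0.05 and 1.29 ± 0.21, in the authors' deposited tables.

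Genes of histone mRNA transcription and 3′ end formation were called higher in 11 and lower in 2 of 17 in LSK (median 0.23), and higher in 4 and lower in 1 of 17 in LinNeg (median 0.18). The difference was called for 0 of 17 by the normal test, against 31.9% of all genes, and 0 had an unadjusted p under 0.05. Slbp, which encodes the stem-loop binding protein, was not called in either population, at 0.10 ± 0.08 (SE, adjusted p = 0.306) in LSK and 0.38 ± 0.19 (adjusted p = 0.103) in LinNeg in the authors' deposited tables. Npat, the coactivator of histone gene transcription, was called higher in both, at 0.22 ± 0.06 (adjusted p = 1.08e-04) in LSK and 0.48 ± 0.16 (adjusted p = 0.00949) in LinNeg. Ncbp1, a subunit of the cap-binding complex, had 0.70 ± 0.06 in LSK and 0.72 ± 0.18 in LinNeg, and Cpsf2, a cleavage factor, had 0.57 ± 0.05 and 0.61 ± 0.17, per the authors' deposited tables.

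Histone chaperones were called higher in 16 and lower in 2 of 21 in LSK, and higher in 11 and lower in 1 of 21 in LinNeg (medians 0.37 and 0.38). The difference was called for 5 of 21, against 31.9% of all genes. Asf1b (0.95), Daxx (0.86) and Anp32e (0.54) were higher in LSK, and Chaf1b (-1.21) and Ipo4 (-1.16) were lower. Nasp, which carries H3 and H4 and linker histones, had a log2 fold change of 0.88 ± 0.07 (SE) in LSK and 0.94 ± 0.23 in LinNeg in the authors' deposited tables.

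Variant histones come from genes outside the clusters, whose mRNAs mostly carry a poly(A) tail and are made outside S phase too. The difference between the populations was called for 7 of 11, all higher in LSK (median 0.87). Among all genes, 31.9% were called different and 17.4% higher in LSK. In LSK 4 were called higher and 5 lower (median -0.14), and in LinNeg 0 were called higher in DESeq2, run by the authors (0 at an unadjusted p under 0.05), and 5 lower (median -0.35). H2afx, the DNA damage variant that also yields a stem-loop mRNA, had a log2 fold change of 0.86 ± 0.06 (SE) in LSK and -0.01 ± 0.20 in LinNeg in the authors' deposited tables. H2afy, which encodes macroH2A1, had -1.05 ± 0.08 in LSK and -2.48 ± 0.14 in LinNeg, and H1f0, the linker variant of non-dividing cells, had -0.45 ± 0.08 and -1.32 ± 0.25. Of other protein-coding genes without introns, 64 were called higher and 77 lower of 297 in LSK (47.5% called, against 61.6% of all genes), and 43 higher and 49 lower of 308 in LinNeg (29.9%, against 41.4%). The difference was called for 58 of 261 of them (22.2%, against 31.9%).

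**Figure D5:**
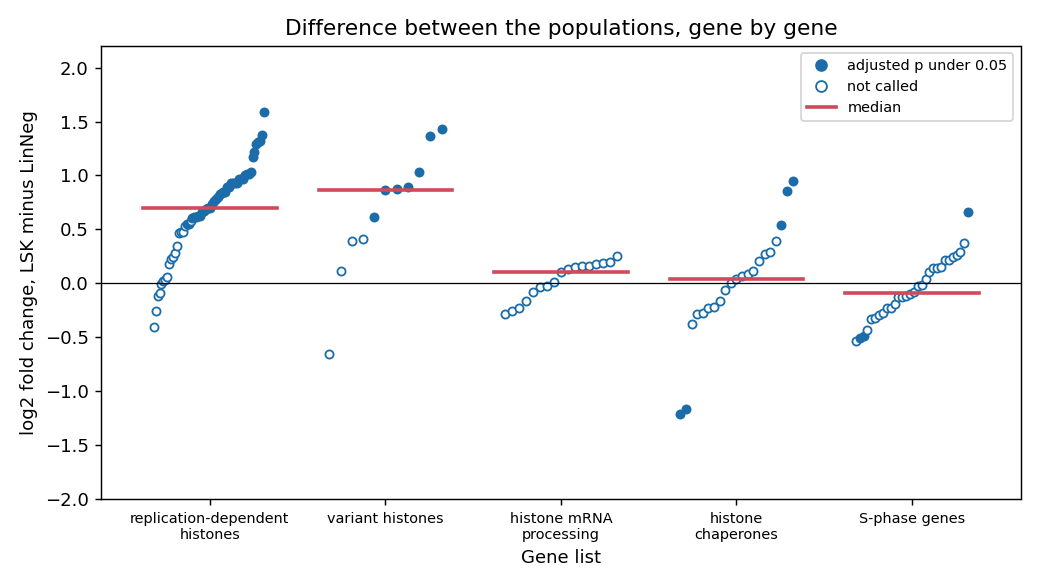
Log2 fold change in LSK minus that in LinNeg for each gene of 5 lists, with called differences filled and list medians in red. One histone member, Hist1h2al at 5.36, lies beyond the axis. The medians are 0.70 for the replication-dependent histones and 0.87 for variant histones, and from -0.09 to 0.10 for the other 3 lists.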

How the data were processed

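RNA of 12 bone marrow libraries was sequenced, 3 per population and genotype label. HISAT2, SAMtools 1.10, StringTie, DESeq2 and build mm10 are named, per the submitters' processing notes. What counted the reads, and over which annotation, is not given in the sources used here. Both tables hold comparisons made by the authors, KO over WT, normalized separately. Per the file headers, the authors deposited a mean of normalized counts (a signal), a log2 fold change with its standard error in log2 units, a Wald statistic (a score) and a p-value with its adjusted p-value.

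The plan preferred a test on library counts. As these were not analysed here, the authors' adjusted p was used, called under 0.05. Log2 fold changes are the product of the deposited statistic and standard error, which keeps more digits than the rounded column. Means under each label assume 3 libraries on each side. Differences between populations were tested with a two-sided normal test on the fold changes (Benjamini-Hochberg over 15735 genes). The test was first run on simulated data with normal noise drawn from the same standard errors. That run cannot show how the test behaves with 3 libraries on each side. Rows without a gene (5, of which reads without a feature held 26.4% in LSK and 38.0% in LinNeg) and 4 repeated symbols were left out. Rn45s, the ribosomal RNA precursor, held 19.3% of the gene means in LSK and 13.3% in LinNeg. Stem-loops, windows and coordinates come from GENCODE M21, promoters from RefSeq.

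Members and gene lists were chosen with earlier results of these data known. Any member may be named. Members with full statistics are the 3 of each type with the highest mean in each table and those called in LinNeg. Hist4h4, which meets neither rule, is also printed in full. Up to 4 genes with the smallest adjusted p were eligible from each other list, plus Slbp, U2af1 and the 5 largest called differences. Genes of a list called different, and neighbours of Hist3, were added after their values were seen. Alternatives were a threshold of 0.01, no filter on low means, means of at least 100 and recentring on the median gene. Software was Python 3.11.15, numpy 2.4.6, pandas 2.3.3, scipy 1.17.1 and matplotlib 3.10.9.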

Additional observations from a re-analysis of the deposited data

Results flagged for a closer look

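The log2 fold change in LSK exceeded that in LinNeg by 5.36 for Hist1h2al, 1.59 for Hist1h2ai, 1.37 for Hist2h2ab, 1.32 for Hist1h2bf and 1.31 for Hist1h2bh, each by a test of the difference between the populations. No member had a called difference in the other direction. Unique 50-base windows made up 32.4% of Hist1h2al, 9.9% of Hist1h2ai and 79.0% of Hist2h2ab.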

How the results depend on the processing

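No paired analysis was possible because the tables hold comparisons and no values per library; leaving out each replicate was not run for the same reason. Counts at 0.01 and on recentring are given without the share of all genes called under the same setting. Of the members called in LinNeg, 7 passed a threshold of 0.01 (3 higher, 4 lower). Recentring on the median gene gave 3 higher and 25 lower in LinNeg. In LSK it gave 53 higher and 1 lower, with Hist1h2al, Hist1h4n and Hist2h2ab no longer called. It turned the sign of Hist1h1t (-0.12), Hist1h2ah (-0.0052), Hist1h2bm (-0.0457), Hist1h4b (-0.0133) and Hist2h2ac (-0.0485) in LinNeg, and of the differences of Hist1h1a (0.0295) and Hist3h2bb-ps (0.11), none of them called in either form. In LSK, 0 were called lower at 0.01, since Hist2h2be has adjusted p = 0.0129. In settings chosen after seeing the data, LinNeg without the Hist3 genes had 3 called higher, and the 35 members with mostly unique sequence had 13 called in LinNeg (9 lower), 33 in LSK (32 higher) and 24 with a called difference (24 higher in LSK), from fewer genes. The number of called differences was 31 at 0.01 and 44 on recentring. The sums of each type and cluster and the median over all members kept their direction under the alternatives run, except the LinNeg sum of the Hist1 middle block (log2 ratio 0.13, and -0.02 on recentring). Depth per library is unknown, which limits what the standard errors can be set against.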
